A study of Arabidopsis thaliana with 8 samples.

Results

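The group described here holds 103 probe sets that were lower after NaCl in both lines of the experiment, out of 22746 measured on the ATH1 array (0.453%). A probe set is a set of short probes, designed in general for 1 transcript. All values are on a log2 scale, so that a difference of -1 is a halving of the signal. Members were chosen on these same values. The mean of the NaCl arrays minus the mean of the control arrays had to be -0.8 or less in each line, and both NaCl arrays had to lie below both control arrays. Of 106 probe sets past the size limit, 105 met the condition on single arrays. The genes EXPA8 and SCPL34 were then left out because of their names, and no organelle gene was found among the rest. Of the 103 members, 48 name 1 gene and 55 carry no gene name here, so that the exclusion of organelle, CYP, EXPA and SCPL genes could not be applied to these 55.

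Whole seedlings of Arabidopsis thaliana, 14 days old and grown hydroponically in MS medium, were compared on 8 arrays in 4 groups of 2. The groups were NaCl and control seedlings of an OsSHMT overexpression line (OE), and NaCl and control seedlings of the wild type (WT). The NaCl seedlings were held at 150 mM for 24 h, although a legend of the study gives a lower concentration. The OE line carries OsSHMT3, a serine hydroxymethyltransferase gene of rice, under the pENTCUP2 promoter in the vector pORE-E2, and the methods name OE3 in one sentence and OE5 in the next. Plants of the T3 generation were used, and OE stands for transgenic plants of this kind in a single labelled line, so that the transgene and the site where it is inserted cannot be told apart. The methods state triplicate biological replication for every experiment and describe array RNA extracted in triplicate. The labels give groups of 2 arrays and do not say whether the arrays of a group came from separate cultures. The p-values below thus measure the spread between arrays, which may be technical.

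Salt stress slows the growth of seedlings, and plant growth depends on the loosening, synthesis and modification of the cell wall. Pectin is modified by methylesterases, wall polysaccharides carry acetyl groups, and microtubules guide the laying down of cellulose. Sugar and energy status is read by the SnRK1 kinase, and light by the phytochromes. Among the 48 named members, 9 carry a gene name or synonym other than a locus code, whatever their role. These are EXO (EXORDIUM), TBL45, TBL36, AT2G31110 (TBL40), PME61, TUB5, AKINBETA1, CML42 and FHL. The other 39 are known here only by their locus codes and are described without a role.

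The replicate arrays of OE spread more widely than those of WT. The SD over all probe sets of the difference between replicates was 0.55 in OE NaCl, 0.43 in OE control, 0.12 in WT NaCl and 0.21 in WT control. Among the members, the median absolute difference between replicates was 0.30, 0.19, 0.07 and 0.14 in the same order of groups. Over all probe sets this median was much the same, at 0.30, 0.24, 0.07 and 0.13. RCA, the Rubisco activase of green tissue and the only leaf marker measured by name, lay between 12.54 and 12.76 on all 8 arrays. No root marker of 17 was measured by name, and the seed, anther and senescence markers measured by name (5 genes) hold no member. Some of these markers differed with NaCl. The seed gene PAP85 had 10.29 and 10.45 in OE NaCl against 7.99 and 7.86 in OE control, and 6.58 and 6.98 in WT NaCl against 9.28 and 9.30 in WT control. BAN, of the seed coat, had 4.56 and 4.25 in OE NaCl against 7.13 and 7.27 in OE control, and 8.68 and 8.59 in WT NaCl against 8.72 and 8.46 in WT control. The seed gene M17 ran from 3.26 to 3.51 in OE NaCl and from 3.58 to 4.76 in OE control, and from 5.69 to 6.05 in WT NaCl and from 3.69 to 3.80 in WT control. PAP85 thus went opposite ways in the 2 lines, and BAN was lower after NaCl in OE while its WT groups overlapped. M17 was higher after NaCl in WT. In OE its groups nearly met (3.51 against 3.58), mostly below 4.45, the 25th percentile of mean level over all probe sets, so no fall is read there. The anther gene ATA27 was lower after NaCl in both lines, with 3.77 and 3.68 in OE NaCl against 3.91 and 4.07 in OE control, and 4.09 and 4.24 in WT NaCl against 5.27 and 4.63 in WT control. Its OE arrays all lay below 4.45 as well, and their shift was small. SAG29, a senescence gene, had 8.48 and 8.86 in OE NaCl against 7.26 and 7.34 in OE control, and between 8.22 and 8.53 on the WT arrays. The part of these organs in the members' response was not tested. In whole seedlings, fewer cells of a type and less RNA per cell cannot be told apart.

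On the values as deposited, the median response of the members was close in both lines, and the rule cut both lines at -0.8. The OE median was lower with quantile normalization and with median centring, as given in the closing section. The median NaCl minus control difference was -1.08 in OE, with a range of -2.96 to -0.80, and -1.06 in WT, with a range of -2.49 to -0.80. The medians over all 22746 probe sets were 0.01 in OE and -0.05 in WT. A difference of -1 or less was seen for 59 members in OE and for 64 in WT, and 40 members reached it in both lines. Only 6 members in OE and 5 in WT reached -2. The response was larger in OE for 53 members and in WT for 50, and for 67 members the 2 responses lay within 0.3 of each other. They lay more than 1 apart for 5 members. These differences chose the members and were not tested. Taken line by line, the limits of the rule were met by 706 probe sets in OE and 539 in WT, and by 105 in both before the exclusions by name. Most probe sets lowered in 1 line are thus not members, and the balance among members does not describe them.

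**Figure D1:**
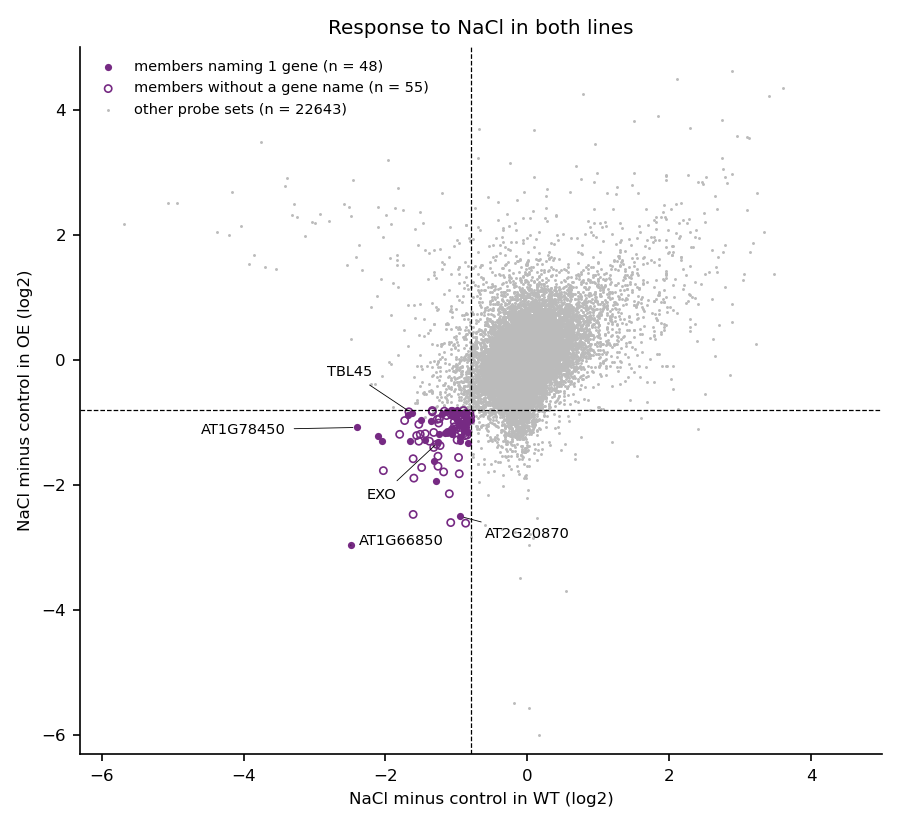
NaCl minus control differences (log2) of all 22746 probe sets, with OE on the vertical and WT on the horizontal axis. Filled circles are the 48 members that name 1 gene, open circles the 55 members without a name, and dashed lines mark the limit of -0.8, so that the members fill the lower left quadrant by construction.

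On single arrays the separation was often complete. For 84 of the 103 members (81.6%), all 4 NaCl arrays lay below all 4 control arrays, whichever line they came from. This held for 1001 of all probe sets (4.40%), and the rule itself required part of it. In the fit across all probe sets (limma), NaCl was called lower at an adjusted p under 0.05 for 86 members in OE, where 2.33% of all probe sets were called lower, and for 74 members in WT, where 2.56% were called lower. Both lines were called for 71 members. Nothing is read from these calls, because the same contrasts chose the members.

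The lowest mean of both differences belonged to AT1G66850. Its values were 5.08 and 5.0 in OE NaCl, 8.02 and 7.99 in OE control, 5.84 and 5.91 in WT NaCl, and 8.35 and 8.36 in WT control. The signal after NaCl was 7.80-fold lower in OE and 5.61-fold lower in WT, and the replicates of each group lay within 0.07 of each other. AT1G78450 came next among the named members, and its response was larger in WT. It had 6.06 and 6.47 in OE NaCl against 7.21 and 7.49 in OE control, and 6.22 and 5.98 in WT NaCl against 8.61 and 8.38 in WT control. The differences were -1.08 in OE and -2.40 in WT, and the NaCl arrays of both lines shared the same low range while the OE control arrays lay below the WT control arrays.

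AT2G20870 had the opposite balance. Its values were 7.21 and 6.56 in OE NaCl, 9.49 and 9.26 in OE control, 7.25 and 7.34 in WT NaCl, and 7.90 and 8.60 in WT control. The difference of -2.50 in OE was thus set against one of -0.95 in WT, where the replicate control arrays were 0.71 apart. AT5G22430 also showed more in OE, with 5.74 and 5.54 in OE NaCl against 7.65 and 7.49 in OE control, and 5.61 and 5.69 in WT NaCl against 6.68 and 7.19 in WT control. Its NaCl arrays reached the same level in both lines, and the differences were -1.93 in OE and -1.29 in WT. In the other direction, AT3G05730 had 5.66 and 6.68 in OE NaCl, 7.30 and 7.47 in OE control, 5.56 and 5.53 in WT NaCl, and 7.67 and 7.62 in WT control. Here the second OE NaCl array stood 1.02 above the first, which is more than the gap between that array and the lower OE control array.

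The remaining named members with the lowest mean differences responded to a like degree in both lines or more in WT. AT1G68875 differed by -1.30 in OE and -2.05 in WT. Its arrays gave 4.82 and 4.65 in OE NaCl, 6.44 and 5.62 in OE control, 5.06 and 4.82 in WT NaCl, and 6.92 and 7.07 in WT control. AT5G33370 gave 5.80 and 5.63 in OE NaCl, 7.39 and 7.26 in OE control, 5.94 and 6.00 in WT NaCl, and 7.29 and 7.27 in WT control. The groups of like treatment nearly coincided between the lines for AT5G33370, with differences of -1.61 in OE and -1.31 in WT. AT1G33811 differed by -1.28 in OE, where its arrays gave 6.18 and 5.47 after NaCl against 7.08 and 7.12 in control. In WT it differed by -1.44, with 5.99 and 5.88 after NaCl against 7.67 and 7.08 in control. AT1G78020 was lower by less in OE (-0.88) than in WT (-1.68), and all of its values are given with the line difference below.

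**Figure D2:**
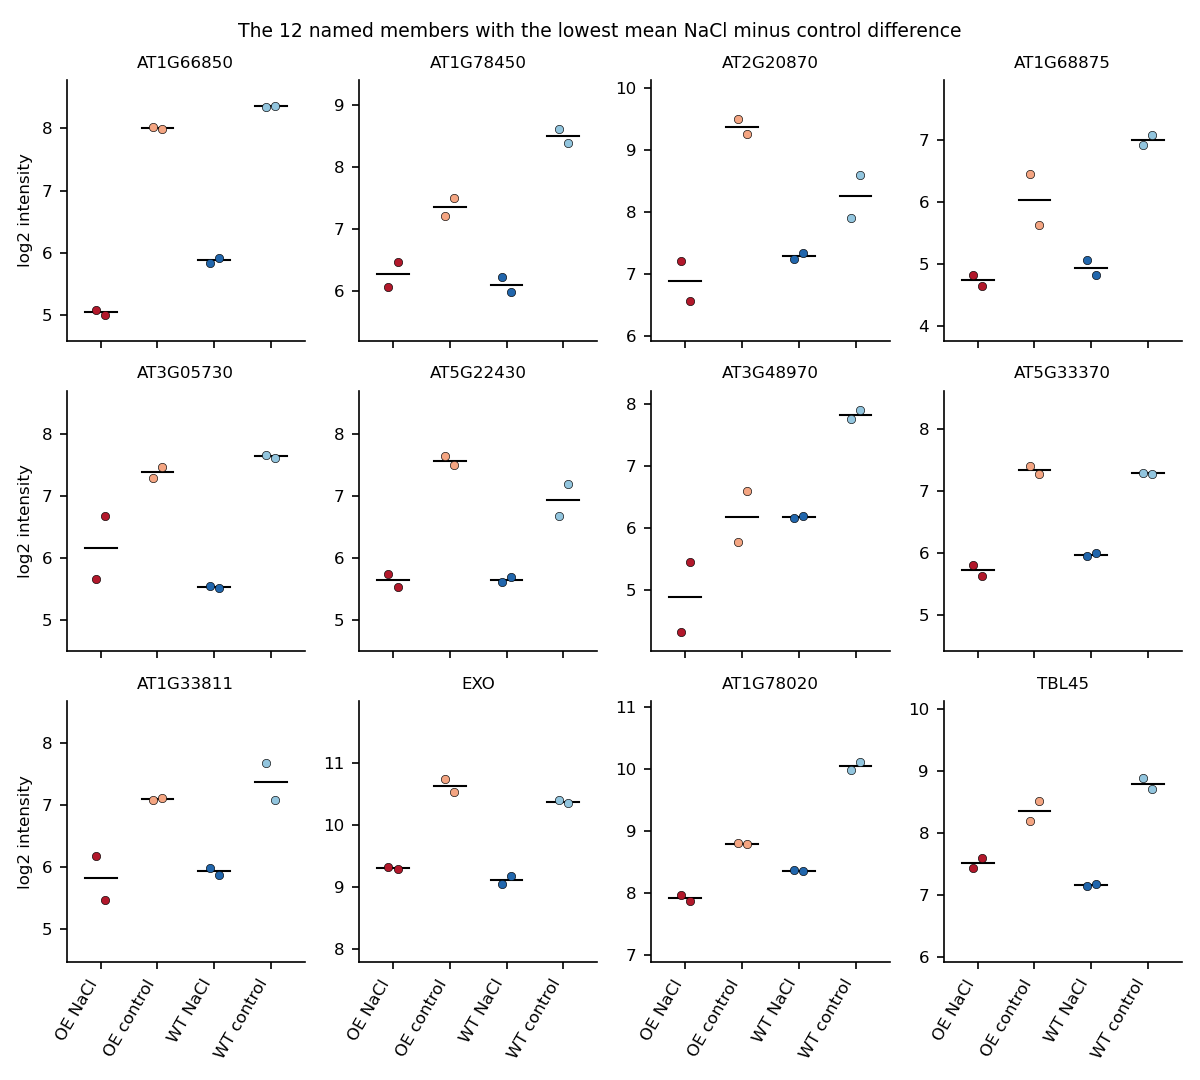
Log2 intensity of the 12 named members with the lowest mean NaCl minus control difference (-2.73 to -1.24), with 1 point per array and a line at each group mean. Each panel spans the same width on the log2 scale, so the gap between NaCl and control points can be compared between panels, and the panels of AT2G20870 and AT1G78450 show the unequal gaps of the 2 lines.

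Among the members with an annotated role, EXO was the lowest in the mean of both lines. EXO encodes EXORDIUM, a secreted protein of Arabidopsis that responds to brassinosteroid and is needed for leaf growth. Its values were 9.33 and 9.29 in OE NaCl, 10.74 and 10.53 in OE control, 9.05 and 9.18 in WT NaCl, and 10.40 and 10.35 in WT control. The signal was 2.50-fold lower after NaCl in OE and 2.40-fold lower in WT. All NaCl arrays lay more than 1 below all control arrays.

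Members of the trichome birefringence-like family, several of which acetylate wall polysaccharides, were present with 3 probe sets. TBL45 had 7.43 and 7.59 in OE NaCl, 8.20 and 8.51 in OE control, 7.15 and 7.18 in WT NaCl, and 8.89 and 8.70 in WT control. It differed by -0.85 in OE and -1.63 in WT, so that the WT arrays enclosed the OE arrays on both sides. TBL36 had 7.08 and 7.01 in OE NaCl, 8.11 and 8.34 in OE control, 6.68 and 6.65 in WT NaCl, and 7.96 and 7.87 in WT control. Its differences were -1.18 in OE and -1.25 in WT. AT2G31110, whose synonym is TBL40, had 6.60 and 6.72 in OE NaCl, 7.48 and 7.77 in OE control, 7.04 and 7.11 in WT NaCl, and 8.06 and 8.08 in WT control. The differences of AT2G31110 were nearly equal at -0.96 in OE and -0.99 in WT, with OE below WT under both conditions.

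The family was examined after these values had been seen. Of its 23 measured genes, the 20 that are not members included none called lower after NaCl in either line by limma, and 3 in OE and 2 in WT were lower at an unadjusted p under 0.05. TBL16 was called higher in OE, with a difference of 0.95 (limma, adjusted p = 0.0178), where 4.88% of all probe sets were called higher. None of the 20 was called higher in WT, where 3.26% of all probe sets were. The median over all 23 was -0.34 in OE and -0.21 in WT. TBL42 reached -1.18 in OE without passing the test (limma, adjusted p = 0.0911) and had -0.23 in WT. TBL26 had -0.50 in OE and -0.65 in WT, and TBL38 had -0.53 in OE and -0.49 in WT.

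**Figure D3:**
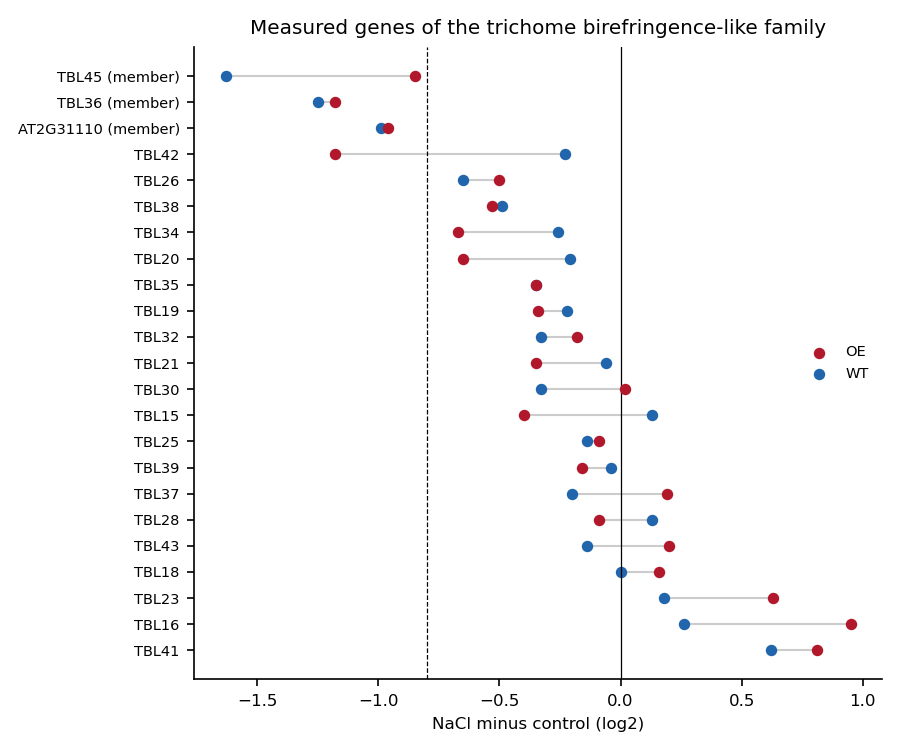
NaCl minus control differences (log2) in OE and WT of the 23 measured genes of the trichome birefringence-like family, ordered by their mean. The 3 members lie beyond the dashed limit of -0.8 in both lines, whereas TBL42 lies beyond it in OE only (-1.18).

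PME61, a pectin methylesterase, had 6.02 and 6.27 in OE NaCl, 6.88 and 7.72 in OE control, 6.78 and 6.90 in WT NaCl, and 7.87 and 8.05 in WT control. The differences were -1.15 in OE and -1.12 in WT, and the lower OE control array lay within the WT NaCl range. Of the other 4 measured genes named as pectin methylesterases, ATPMEPCRD had -1.58 in OE (limma, adjusted p = 0.0497, the 1 gene called) and 0.67 in WT (limma, adjusted p = 0.456). The other three lay between -0.39 and -0.33 in OE and between -0.31 and 0.47 in WT, and none was called. In the list of cell wall remodelling genes without expansins, 49 genes were measured and PME61 was the only member. Of its other 48 genes, 1 was called lower and 1 higher after NaCl in OE, and 0 lower (3 at an unadjusted p under 0.05) and 3 higher in WT, with list medians of -0.12 in OE and -0.07 in WT.

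TUB5 encodes a beta-tubulin, a subunit of microtubules. It had 9.15 and 9.39 in OE NaCl, 10.29 and 9.97 in OE control, 9.32 and 9.23 in WT NaCl, and 10.42 and 10.22 in WT control. The 2 lines overlapped under each condition, and the differences were -0.86 in OE and -1.04 in WT. None of the other 6 measured tubulin genes was called in either line by limma (1 in OE and 0 in WT at an unadjusted p under 0.05). TUB6 came nearest with -0.44 in OE and -0.31 in WT, and TUB9 had 0.53 in OE and 0.09 in WT.

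AKINBETA1 encodes a beta subunit of the SnRK1 kinase, which responds to low energy. Its values were 10.39 and 10.34 in OE NaCl, 11.25 and 11.19 in OE control, 9.95 and 10.09 in WT NaCl, and 10.72 and 11.01 in WT control. The signal was 1.81-fold lower after NaCl in OE and 1.80-fold lower in WT. AT4G16360, the KINbeta2 subunit and the only other SnRK1 subunit measured by name, differed by -0.12 in OE and -0.05 in WT, and neither difference passed the test.

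CML42, a calmodulin-like calcium-binding protein, had 8.0 and 7.47 in OE NaCl, 8.79 and 8.52 in OE control, 6.75 and 6.97 in WT NaCl, and 7.99 and 7.78 in WT control. Its differences were -0.92 in OE and -1.02 in WT, and the OE arrays lay above the WT arrays within each condition. The other 7 measured calmodulin-like genes included none called in either line by limma (2 in OE and 1 in WT at an unadjusted p under 0.05), and CML37 had differences of the opposite sign, at 1.36 in OE and 0.95 in WT.

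FHL, which in Arabidopsis helps bring phytochrome A into the nucleus, had 4.75 and 5.20 in OE NaCl, 5.63 and 6.00 in OE control, 6.19 and 6.18 in WT NaCl, and 7.29 and 7.36 in WT control. It differed by -0.84 in OE and -1.14 in WT. Every OE array of FHL, control arrays included, lay below every WT array.

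**Figure D4:**
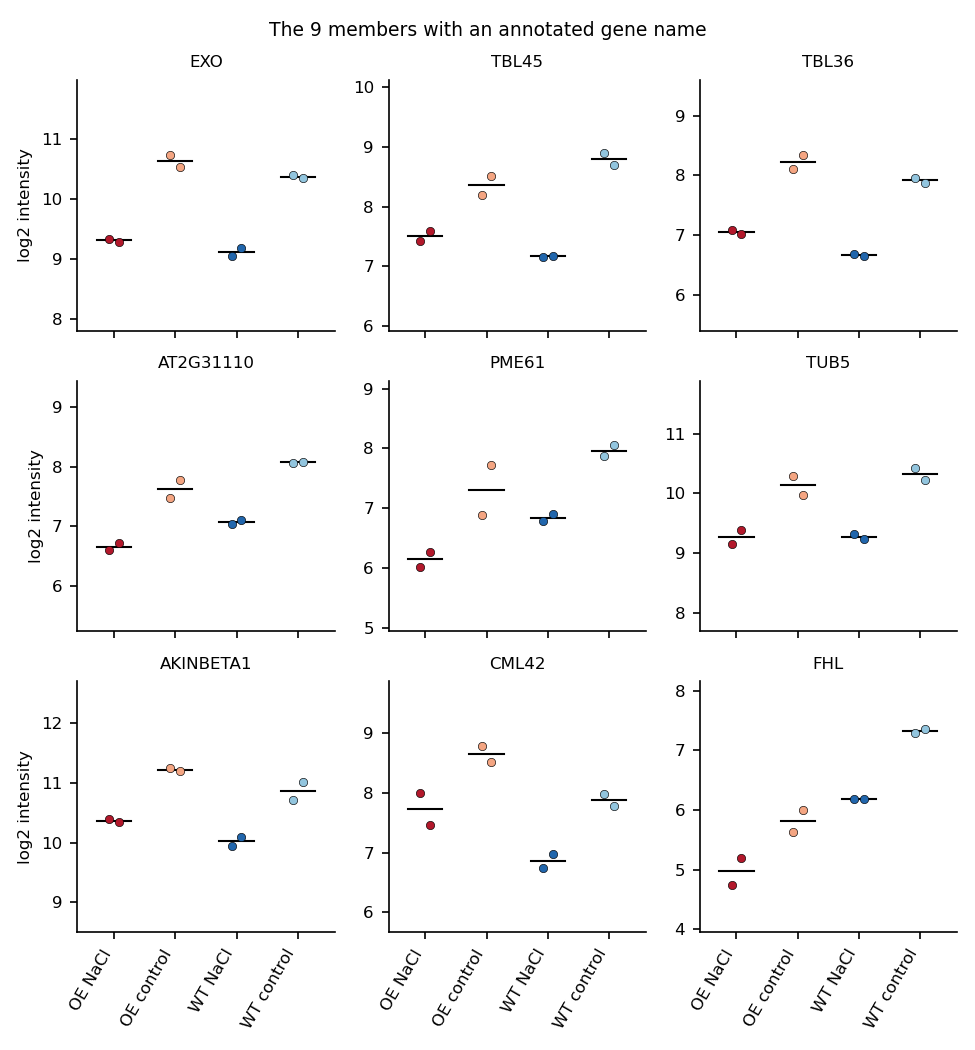
Log2 intensity of the 9 members with an annotated gene name, with 1 point per array and a line at each group mean. NaCl arrays lie below control arrays within each line in every panel, and FHL (OE below WT) and CML42 (OE above WT within each condition) show the shift between the lines.

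Gene lists of pathways known for their response to salt or growth held 3 members among 450 measured genes (0.667%), where 0.355% of all probe sets naming 1 gene are members. Of 33 lists, 32 had a measured gene and 3 held a member, which were PME61 among the wall genes, TUB5 among 15 cytoskeleton genes and CML42 among 42 genes of receptor kinases and signalling. None of the 9 measured light-harvesting and photosystem genes was a member, and 1 of them was called lower in each line. At an unadjusted p under 0.05, 1 was lower in OE and 4 in WT. None of 72 transcription factor genes was a member, with 3 called lower in OE and 0 in WT (8 and 10 at an unadjusted p under 0.05). No member was found among 22 cell cycle and histone genes (0 called lower in OE and 1 in WT, or 2 and 3 at an unadjusted p under 0.05). The same held for 17 auxin genes (1 called lower in each line, or 4 in OE and 3 in WT at an unadjusted p under 0.05). Most genes of the array carry only a locus code here, so that the lists cover few of their pathways' genes.

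Members just inside the limit were AT5G02540, with -0.96 in OE and -0.80 in WT, AT5G66530, with -0.80 in OE and -1.07 in WT, and AT1G54740, with -0.80 in OE and -0.99 in WT. Just outside were AT5G16250, AT5G40630 and IAA29, an Aux/IAA repressor gene of auxin signalling. AT5G16250 had -1.126 in OE and -0.799 in WT, AT5G40630 had -0.955 in OE and -0.789 in WT, and IAA29 had -0.859 in OE and -0.781 in WT. The gap between both sides of the limit was thus far smaller than the spread between replicate arrays.

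None of the 48 named genes was represented by more than 1 member, which could not be checked for the 55 unnamed members. In the TAIR10.1 annotation, the closest named members were AT5G20740 and AT5G20790, with 4 genes between them, and AT5G66530 and AT5G66590, with 12 genes between them. AT5G20740 was lower by more in OE, with 5.25 and 5.87 in OE NaCl against 6.72 and 7.06 in OE control, and 5.87 and 6.02 in WT NaCl against 6.78 in both WT control arrays. The differences of AT5G20740 were -1.33 in OE and -0.84 in WT, and those of its neighbour AT5G20790 were -1.06 in OE and -0.93 in WT.

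The difference between the lines, averaged over both conditions, was not used to choose the members and was tested. It is the mean of the OE groups minus the mean of the WT groups, fitted over all probe sets with limma, and a probe set is called at a Benjamini-Hochberg adjusted p under 0.05. Of the 103 members, 16 were higher in OE (15.5%), where 13.7% of all probe sets were called higher. Another 38 were lower in OE (36.9%), where 16.1% of all probe sets were called lower. Calls in either direction thus numbered 54 (52.4%), against 29.8% of all probe sets. Among probe sets at or above the median signal, which include 86 of the members, the shares called either way were 52.3% of members and 35.1% of all. The shares called lower in OE at this signal were 33.7% of members and 22.7% of all. The number of members higher in OE was 10 without WT control replicate 1, 9 without WT NaCl replicate 1 and 10 without WT NaCl replicate 2, and the number lower was 24, 23 and 21 in the same order. Calls in either direction made up 33%, 31.1% and 30.1% of members at these settings, against 10.4%, 9.37% and 9.72% of all probe sets.

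The balance of lower and higher members depended on the scaling of the arrays. With quantile normalization, 21 of the 103 members were higher and 28 lower in OE, against 14.1% and 14.2% of all probe sets. With median centring, 29 were higher and 27 lower, against 26.1% and 11% of all probe sets, and the median difference over all probe sets was 0.20 instead of 0.02. Called either way were 47.6% of members with quantile normalization and 54.4% with median centring, against 28.3% and 37.1% of all probe sets. At both scalings the share of members called lower stayed above that of all probe sets. The median difference of the members was -0.13 on the values as deposited. Array medians were 6.10 and 6.32 in OE NaCl, 6.00 and 6.08 in OE control, 6.33 on both arrays of WT NaCl, and 6.32 and 6.27 in WT control.

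Control probe sets also differed between the lines. The 25S rRNA control lay between 12.23 and 12.43 in OE and between 9.50 and 9.62 in WT. The 3' minus 5' difference of GAPDH is a control for how far labelling reached towards the 5' end. It was 0.52 and 1.74 in OE NaCl against 0.24 on both OE control arrays. In WT it was 2.84 and 2.77 in WT NaCl against 3.12 and 3.33 in WT control. That of actin lay between 2.32 and 2.73 in OE and between 4.12 and 4.49 in WT. The GAPDH control thus differed between NaCl and control within OE too, and its part in the NaCl responses was not tested. Genotype and RNA preparation cannot be told apart for any line difference given here.

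The order of the 4 group means took mainly 2 forms. In 44 members it ran from WT control over OE control and WT NaCl down to OE NaCl, and in 29 from OE control over WT control and OE NaCl down to WT NaCl. In both forms the lines kept their order under both conditions, and the control groups lay above the NaCl groups, as a response of at least 0.8 in each line favours by construction. In 9 members the lines were so far apart that both WT groups lay above both OE groups, and in 3 both OE groups lay above both WT groups. Single arrays of the lines did not overlap at all in 9 members. All OE arrays lay above all WT arrays in 1 of them (0.971% of members, against 10.5% of all probe sets) and below in 8 (7.77%, against 11.4%). A response to NaCl widens the range of each line, and the rule required such a response in every member.

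AT2G30600 was the member with all OE arrays above WT. Its values were 7.53 and 8.13 in OE NaCl, 8.61 and 8.71 in OE control, 6.35 and 6.31 in WT NaCl, and 7.34 and 7.27 in WT control. The average difference was 1.43 ± 0.14 (SE; limma, adjusted p = 0.000933). AT5G19240 had 8.10 and 7.98 in OE NaCl, 9.19 and 8.85 in OE control, 6.87 in both WT NaCl arrays, and 8.15 and 8.31 in WT control. OE was higher within each condition and the average difference of AT5G19240 was 0.98 ± 0.11 (SE; limma, adjusted p = 0.00162).

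AT3G07010 was higher in OE by 0.92 ± 0.15 (SE; limma, adjusted p = 0.00675). Its arrays gave 7.38 and 7.87 in OE NaCl, 8.49 and 8.75 in OE control, 6.77 and 6.79 in WT NaCl, and 7.82 and 7.44 in WT control. The OE NaCl arrays of AT3G07010 thus reached the range of WT control. CML42 was higher by 0.82 ± 0.15 (SE; limma, adjusted p = 0.00958). Its call was lost without WT NaCl replicate 1, where the difference was 0.77, and in the limma fit without moderation of the variance (adjusted p = 0.0529). AT5G63180 was higher by 0.49 ± 0.11 (SE; limma, adjusted p = 0.0186). Its call was lost when any 1 of the 4 WT arrays was left out, while its difference stayed between 0.45 and 0.54. Fewer of all probe sets were called at these settings too, which also holds for the other calls lost without a WT array. TBL36 and AKINBETA1 were both higher by 0.35 ± 0.10 (SE; limma, adjusted p = 0.0355 and 0.0424). The call of TBL36 was lost without any 1 of the WT arrays or without OE control replicate 2 (adjusted p = 0.0571 to 0.142), and that of AKINBETA1 without any 1 array other than OE NaCl replicate 2 (adjusted p = 0.0556 to 0.174).

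The named members with the largest shift in the other direction were AT3G48970, AT5G02540, FHL, AT1G22480 and AT1G08340. AT3G48970 gave 4.33 and 5.45 in OE NaCl, 5.77 and 6.60 in OE control, 6.16 and 6.20 in WT NaCl, and 7.76 and 7.90 in WT control. The difference was -1.47 ± 0.27 (SE; limma, adjusted p = 0.0102), with replicates of OE up to 1.11 apart. Its call was lost without WT control replicate 1, where the difference was -1.50, and in the limma fit without moderation of the variance (adjusted p = 0.0692). OE control and WT NaCl shared a range for AT3G48970, with the WT NaCl arrays between the OE control arrays.

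AT5G02540 gave 5.27 and 5.23 in OE NaCl, 6.59 and 5.83 in OE control, 6.68 and 6.82 in WT NaCl, and 7.65 and 7.45 in WT control. AT1G22480 gave 8.35 and 8.12 in OE NaCl, 9.18 and 9.17 in OE control, 9.50 and 9.49 in WT NaCl, and 10.44 and 10.53 in WT control. In both genes every OE array lay below every WT array, by an average of -1.42 ± 0.17 for AT5G02540 (SE; limma, adjusted p = 0.00203) and of -1.29 ± 0.10 for AT1G22480 (SE; limma, adjusted p = 0.000298). FHL showed the same separation, at -1.36 ± 0.14 (SE; limma, adjusted p = 0.000977). AT1G08340 gave 4.68 and 4.46 in OE NaCl, 5.60 and 5.89 in OE control, 5.78 and 5.71 in WT NaCl, and 6.95 and 6.65 in WT control. Its OE control and WT NaCl arrays overlapped, and the average difference was -1.11 ± 0.12 (SE; limma, adjusted p = 0.00136).

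AT1G66850 and AT1G78020, which are among the 12 named members with the lowest mean difference, also passed the test of the lines. AT1G66850 lay below WT within each condition, by an average of -0.59 ± 0.09 (SE; limma, adjusted p = 0.00411). For AT1G78020, with 7.97 and 7.87 in OE NaCl, 8.81 and 8.78 in OE control, 8.37 and 8.35 in WT NaCl, and 9.98 and 10.10 in WT control, the average was -0.85 ± 0.09 (SE; limma, adjusted p = 0.00115). Other calls near the limit were less firm. PME61 differed by -0.68 ± 0.19 (SE; limma, adjusted p = 0.0361), AT2G31110 by -0.43 ± 0.10 (SE; limma, adjusted p = 0.0224) and AT1G78450 by -0.49 ± 0.14 (SE; limma, adjusted p = 0.038). Each of these calls was lost without any 1 of the 4 WT arrays (adjusted p = 0.101 to 0.118 for PME61, 0.0767 to 0.106 for AT2G31110 and 0.0792 to 0.147 for AT1G78450). The calls of PME61 and AT1G78450 were also lost without OE NaCl replicate 1 (adjusted p = 0.0727 and 0.0617), and that of AT1G78450 without OE control replicate 1 (adjusted p = 0.0897). With quantile normalization and with median centring, none of these 3 passed the test (adjusted p = 0.0682 and 0.0587 for PME61, 0.0893 and 0.087 for AT2G31110, and 0.0616 and 0.0715 for AT1G78450).

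EXO, TBL45 and TUB5 did not pass the test of the lines. EXO differed by 0.23 ± 0.10 (SE; limma, adjusted p = 0.109), TBL45 by -0.05 ± 0.11 (adjusted p = 0.766) and TUB5 by -0.10 ± 0.12 (adjusted p = 0.556). EXO passed it with median centring, at 0.41 (adjusted p = 0.0332), and with an intensity trend in the variance (adjusted p = 0.0478). Of the 48 named members, 7 were higher (14.6%) and 17 lower (35.4%) in OE in all, against 13.7% and 16.1% of all probe sets, and their averages ran from -1.47 to 1.43.

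**Figure D5:**
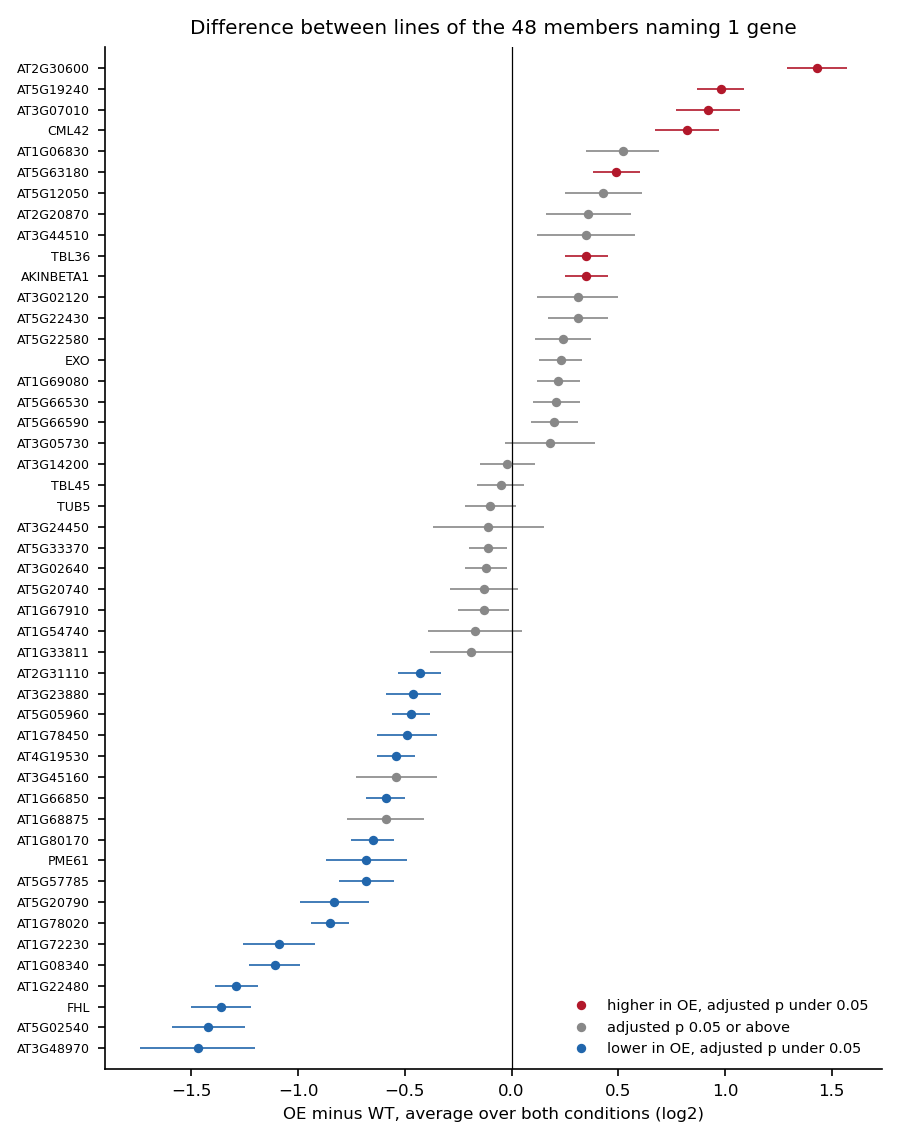
OE minus WT difference averaged over both conditions (log2) of the 48 members naming 1 gene, with bars of 1 SE from the limma fit over all probe sets. The 7 members called higher and the 17 called lower in OE are coloured, and AT2G30600 (1.43) and AT3G48970 (-1.47) mark the ends.

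The 55 members without a gene name behaved like the named ones in their response and reached further between the lines. Their median NaCl minus control difference was -1.16 in OE and -1.14 in WT, against -1.0 in OE and -1.03 in WT for the 48 named members. Of the 55, 9 were higher (16.4%) and 21 lower (38.2%) in OE, against 13.7% and 16.1% of all probe sets, with averages between -3.93 and 1.59. The lowest average belonged to probe set 264100_at, named here after its values were seen. It gave 5.19 and 3.92 in OE NaCl, 5.35 and 5.53 in OE control, 8.44 and 8.38 in WT NaCl, and 9.34 and 9.56 in WT control. The average of -3.93 ± 0.26 (SE; limma, adjusted p = 0.000175) was several times its NaCl minus control difference of -0.89 in OE and -1.04 in WT. Its OE NaCl arrays were 1.27 apart, which is more than the OE difference. The lower of them (3.92) lay below 4.45, the 25th percentile of mean level over all probe sets.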

How the data were processed

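The authors hybridized RNA of whole seedlings to 8 ATH1 arrays and deposited 1 log2 value per probe set and array, made with Affymetrix Expression Console per the labels. Its version and the summarization method are not given in the sources used here. The labels name Trizol for RNA extraction and the methods an RNeasy kit with triplicates. The labels give 2 arrays per group, and all 8 were used. The deposited log2 values were used without further normalization, and 64 control probe sets were left out. For arrays, their number limits the precision. Gene names came from the platform annotation (13513 probe sets name 1 gene), and all 48 named members matched TAIR10.1.

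The line difference was fitted in R 4.3.3 (limma 3.58.1). Each group had its own mean, and 1 variance per probe set was estimated from all 8 arrays. Benjamini-Hochberg adjustment ran over 22746 probe sets. The procedure was run on simulated data, with normal noise of the same SD for all probe sets of a group. The real arrays need not share that noise, so nothing is read from this run. The members, the gene lists and the rule for named genes were chosen with earlier results of these data known. The rule named, among members with 1 gene, the 12 with the lowest mean difference, the 5 highest and 5 lowest called line differences, the 3 with the largest difference between the responses of the lines each way, and 3 genes on each side of the limit. The members with an annotated name were added, and the gene families and probe set 264100_at were chosen after the values were seen. A wall list entry for a methyltransferase with a similar name was removed. Alternatives were other limits, scalings, filters and variance models, the replicate number as a block, and each array left out.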

Additional observations from a re-analysis of the deposited data

How the results depend on the processing

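The number of members was 40 with a limit of -1 and 47 with 1 probe set a gene, which leaves out the unnamed probe sets. The other settings gave between 92 and 151, and single arrays left out gave 92 to 115. Median centring gave 29 members higher in OE, and the fit without moderation 23 lower. With single arrays left out, 9 to 21 members were higher and 21 to 46 lower in OE. The share of all probe sets called either way ran from 9.37% to 51% over these settings, and the 46 lower members belong to the setting with 51% (without OE NaCl replicate 2). The lower count was 24 without WT control replicate 1, 23 without WT NaCl replicate 1 and 21 without WT NaCl replicate 2, and the higher count was 10, 9 and 10 in the same order. All but 3 of the arrays left the counts within 1.5 times those on all arrays. The median difference after NaCl in OE was -1.21 with quantile normalization and -1.25 with median centring, and -1.13 to -1.03 with single arrays left out. In WT the median was -1.11 to -1.06 with single arrays left out, and its values at these scalings are not given here. A similar size of response in both lines is thus read on the deposited values only. The line differences of 29 of the named members, chosen by the rule for named genes or for an annotated name, were followed. Of these 29, 17 were called, and 9 kept their call under every alternative run. No difference changed sign where it was called in either fit. Some uncalled ones did, such as TBL45 (-0.05, and 0.10 with quantile normalization). Replicate numbers are shared between groups, but nothing states that they pair the arrays, and the deviations of like-numbered arrays correlated between -0.20 and 0.18 over 6 pairs of groups. With a replicate block, 14 members were higher and 35 lower in OE, and TBL36, AKINBETA1 and AT1G78450 lost their calls. The causes were not tested. With 2 arrays per group, small shifts between the lines are not resolved.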
